A study of Mus musculus with 12 samples.

Results

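Extracellular nucleotides and adenosine act on cells through 3 receptor families, and 9 genes of this signaling system were followed in BV2 cells, an immortalized mouse microglial line. The set held the ATP-gated ion channels P2rx4 and P2rx7, the G protein-coupled nucleotide receptors P2ry2, P2ry6, P2ry13 and P2ry14, the adenosine receptors Adora2a and Adora2b, and Entpd1, which encodes the ectonucleotidase CD39. They were selected by gene name, with earlier results of these data known, and all 9 were found among the 21834 protein-coding genes of the deposited count table. Of these 9 genes, 8 had enough counts to be tested and P2ry14 did not.

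RNA was sequenced from a BV2 line stably expressing a control shRNA (shCtrl) and from a line expressing an shRNA against Anxa2 (shAnxa2), which encodes the phospholipid-binding protein annexin A2. Each line was left untreated (CTRL) or taken through deprivation of oxygen and glucose followed by reoxygenation (OGD/R), a culture model of ischemia and reperfusion, which gave 4 groups of 3 libraries. The labels give 4 h of deprivation in glucose-free medium and 12 h of reoxygenation, and the methods of the study give a longer reoxygenation. Both lines were made by lentiviral transduction and puromycin selection. Each hairpin is represented by 1 line, so the effect of Anxa2 knockdown and any other difference between the lines cannot be told apart. Groups were taken from the sample names, because a second label assigns the knockdown by treatment and not by line. The methods of the study call the 3 libraries of a group biological replicates, and all of them came from 1 line, so the p-values below measure the spread between samples of that line.

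ATP leaves stressed or damaged cells and opens P2X channels, among which P2X7 needs high ATP concentrations and is known in microglia for its link to the NLRP3 inflammasome and interleukin-1β release. CD39 on the cell surface degrades ATP and ADP to AMP, which CD73 converts to adenosine, so that the signal passes from P2 receptors to the adenosine receptors. Microglial P2Y receptors sense different nucleotides, with ATP and UTP acting on P2Y2, UDP on P2Y6, ADP on P2Y13 and UDP-glucose on P2Y14.

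The library totals ranged from 19521877 to 27288843 counts. Levels are given as CPM, counts per 1000000 counts of the library after scaling by the TMM factor of edgeR, and as mean ± SD of 3 libraries. Anxa2 itself was at 164.5 to 176.6 CPM in shCtrl-CTRL, 250.8 to 294.5 in shCtrl-OGDR, 34.9 to 44.4 in shAnxa2-CTRL and 18.2 to 20.6 in shAnxa2-OGDR, so the line given in the sample names matched the level of the targeted gene. Of 14 microglial markers, 11 to 13 reached at least 1 CPM in every library of a group, whereas Sall1 had 0 counts throughout. Fcrls fell short in all groups but shCtrl-CTRL, and C1qa in both shAnxa2 groups. The summed level of the 14 markers was 1636 to 1744 CPM in shCtrl-CTRL, 1469 to 1593 in shCtrl-OGDR, 1322 to 1405 in shAnxa2-CTRL and 1463 to 1486 in shAnxa2-OGDR. Csf1r alone held 387.8 to 589.6 CPM of it, whereas Tmem119 was at 1.41 to 10.7 CPM, Cx3cr1 at 2.67 to 6.35 and Aif1 at 1.99 to 6.20. Markers of astrocytes, of neurons and of T and B cells each summed to less than 1 CPM in every library. Those of oligodendrocytes summed to 4.08 to 6.61 CPM, with Mbp the 1 of 4 at 1 CPM or more in every library. Endothelial markers summed to 1.58 to 1.72 CPM in shCtrl-CTRL, 0.458 to 0.978 in shCtrl-OGDR, 0.587 to 1.23 in shAnxa2-CTRL and 1.67 to 2.09 in shAnxa2-OGDR, and the part of these transcripts in the results was not tested.

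A call refers to an adjusted p under 0.05 in the quasi-likelihood test of edgeR, fitted to all 12 libraries and the 11626 genes with at least 0.5 CPM in 3 or more libraries, with Benjamini-Hochberg adjustment over all of them. Differences are log2 fold changes with their standard error (SE). The OGD/R responses of the 2 lines ran in opposite directions over the whole transcriptome. Of 5240 genes called after OGD/R in both lines, 5165 (98.6%) changed in opposite directions. For 8378 of 11626 genes (72.1%), the mean level of shAnxa2-OGDR was nearer to shCtrl-CTRL than to shCtrl-OGDR. For 7115 genes (61.2%), shAnxa2-CTRL was nearer to shCtrl-OGDR than to shCtrl-CTRL. Anxa2 itself rose after OGD/R in shCtrl cells (0.70, SE 0.0643, edgeR adjusted p = 1.21e-09) and fell in shAnxa2 cells (−1.04, SE 0.0827, adjusted p = 3.05e-10), where it is also the target of the hairpin. Opposite responses and an exchange of the treatment names within 1 line cannot be told apart from the labels, and such an exchange was not tested. Every comparison below rests on those names.

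P2rx7 (ENSMUSG00000029468, chromosome 5, 122781974 to 122829495 on the plus strand in mm39 coordinates) was the most abundant of the 9 transcripts. Its level was 1336, 1380 and 1366 CPM in the shCtrl-CTRL libraries and 1742, 1687 and 1705 CPM in the shCtrl-OGDR libraries. In the knockdown line it was 744.1, 717.4 and 691.8 CPM without OGD/R and 677.4, 706.7 and 692.7 CPM after it. All 6 shAnxa2 libraries lay below all 6 shCtrl libraries, and the untreated and treated libraries overlapped only in the shAnxa2 line. After OGD/R, P2rx7 rose in shCtrl cells, from 1361 ± 22.3 to 1711 ± 27.8 CPM, with a log2 fold change of 0.33 (SE 0.0411, edgeR adjusted p = 1.86e-07). In shAnxa2 cells the change was −0.05 (SE 0.0413, adjusted p = 0.298). The knockdown line had less P2rx7 than the control line both without OGD/R (−0.92, SE 0.0415, adjusted p = 5.62e-15) and after it (−1.31, SE 0.0419, adjusted p = 7.24e-18). It held 52.8% of the control level in untreated cells and 40.5% after OGD/R. An annotated microRNA gene, Mir8115, lies within 119 of the 5970 exon bases of P2rx7, and its share of the counts was not tested.

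P2rx4 (ENSMUSG00000029470) encodes the other ATP-gated channel of the set, a receptor known from microglia in neuropathic pain. It lies downstream of P2rx7 on the same strand of chromosome 5 (122845607 to 122867801), with a gap of 16111 bases and no other protein-coding gene of the table between them. P2rx4 was at 78.8, 70.9 and 72.3 CPM in shCtrl-CTRL and at 134.1, 124.7 and 125.1 CPM in shCtrl-OGDR. The shAnxa2 libraries held 106.4, 98.3 and 106.9 CPM without OGD/R and 88.2, 82.4 and 91.2 CPM after it. No 2 of the 4 groups overlapped, and both shAnxa2 groups lay between the shCtrl groups. P2rx4 rose with OGD/R in shCtrl cells (0.79, SE 0.0544, edgeR adjusted p = 7.36e-12) and fell in shAnxa2 cells (−0.25, SE 0.0549, adjusted p = 0.000409). The shAnxa2 line had more P2rx4 than the shCtrl line when untreated (0.49, SE 0.0549, adjusted p = 4.84e-08) and less after OGD/R (−0.55, SE 0.0544, adjusted p = 2.77e-09). The neighboring channels thus differed in sign between the untreated lines, where P2rx7 was lower and P2rx4 higher in shAnxa2.

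Entpd1 (ENSMUSG00000048120, chromosome 19, 40600810 to 40730046 on the plus strand) was measured at 39.3, 37.4 and 40.5 CPM in shCtrl-CTRL and at 62.7, 60.1 and 65.3 CPM in shCtrl-OGDR. Its levels were 51.0, 47.7 and 49.1 CPM in shAnxa2-CTRL and 32.2, 29.7 and 26.9 CPM in shAnxa2-OGDR. The 4 groups did not overlap, with the treated groups at the upper and lower ends of the range. In shCtrl cells Entpd1 rose after OGD/R by 0.68 on the log2 scale (SE 0.0632, edgeR adjusted p = 1.43e-09). The shAnxa2 line showed a decrease (−0.74, SE 0.0668, adjusted p = 2.55e-09). Between the lines, Entpd1 was higher in untreated shAnxa2 cells (0.33, SE 0.0643, adjusted p = 9.14e-05) and lower after OGD/R (−1.08, SE 0.0658, adjusted p = 4.97e-13), when shAnxa2 cells held 47.2% of the shCtrl level.

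**Figure D1:**
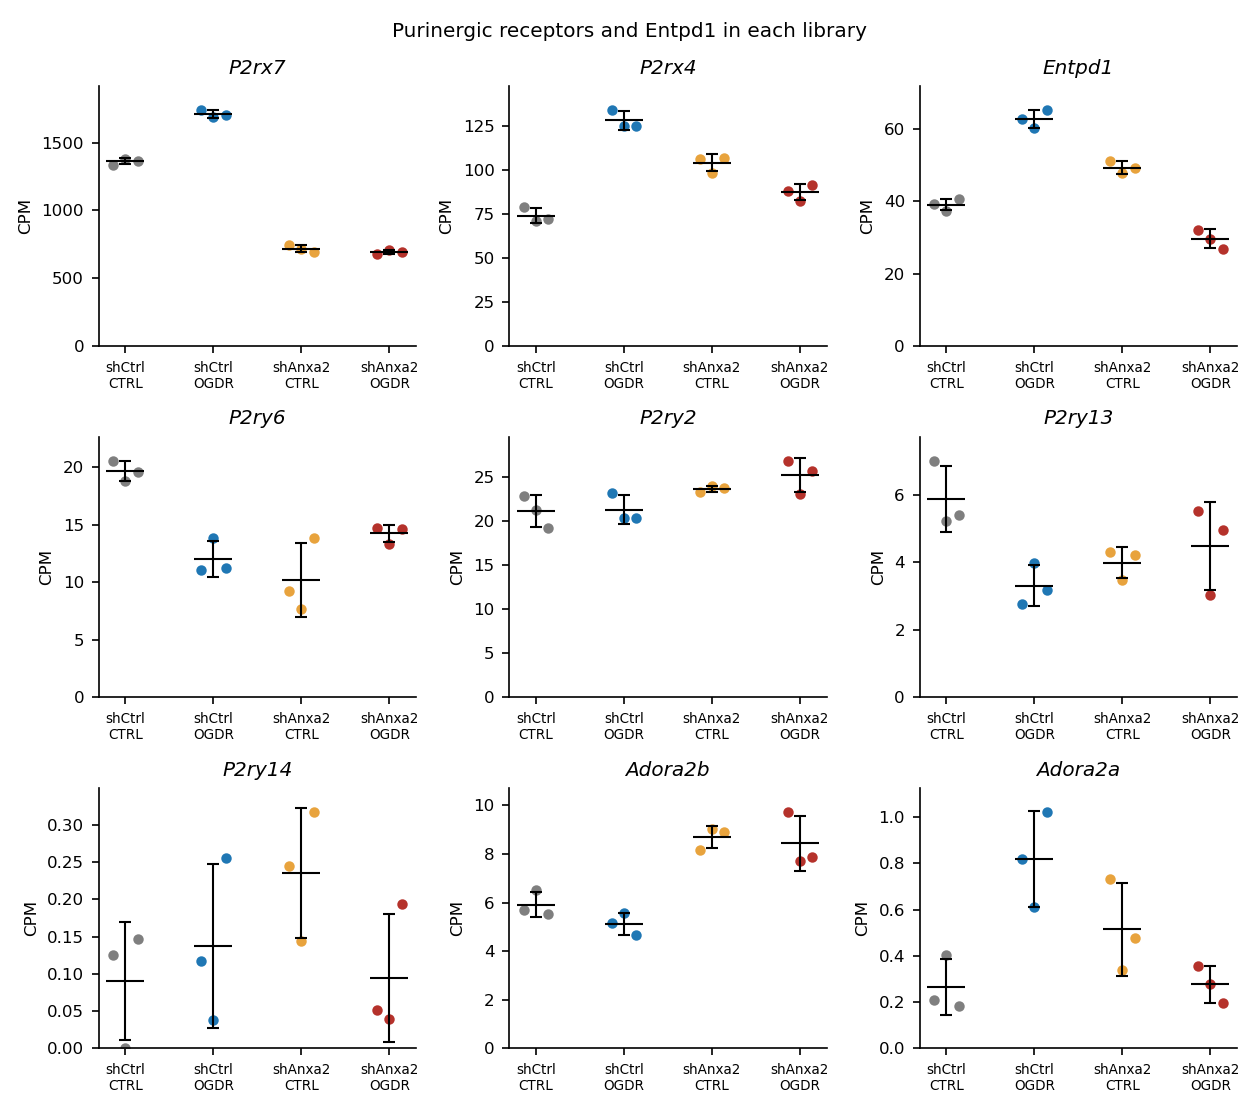
Level of each gene in CPM (linear axis from 0) in the 12 libraries by group, with points for libraries and black bars for the mean ± SD of 3. P2rx7 sat at 691.8 to 744.1 CPM in shAnxa2-CTRL and 677.4 to 706.7 CPM in shAnxa2-OGDR, below all shCtrl libraries, while P2rx4 and Entpd1 separated all 4 groups.

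P2ry6 (ENSMUSG00000048779, chromosome 7, 100586837 to 100623856 on the minus strand), the UDP receptor linked to microglial phagocytosis, moved the other way. The shCtrl-CTRL libraries were at 20.6, 18.8 and 19.6 CPM and the shCtrl-OGDR libraries at 11.0, 13.9 and 11.3 CPM. The corresponding shAnxa2 values were 9.19, 7.65 and 13.8 CPM without OGD/R and 14.7, 13.4 and 14.6 CPM after it. Untreated shCtrl cells stood above the other 3 groups, and the untreated and treated shAnxa2 libraries overlapped through replicate 3 of shAnxa2-CTRL. P2ry6 fell after OGD/R in shCtrl cells by 0.70 on the log2 scale (SE 0.133, edgeR adjusted p = 6.73e-05). It rose in shAnxa2 cells (0.46, SE 0.142, adjusted p = 0.00874), but without replicate 2 of shAnxa2-CTRL the value was 0.29 with an adjusted p of 0.0809, and without replicate 3 of that group it was 0.75. In untreated cells, P2ry6 was lower in the shAnxa2 line (−0.92, SE 0.136, adjusted p = 3.02e-06). After OGD/R the lines differed by 0.23 (SE 0.139, adjusted p = 0.142), a difference that was called without replicate 3 of shAnxa2-CTRL (0.23, adjusted p = 0.048).

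P2ry13 (ENSMUSG00000036362, chromosome 3, 59115313 to 59118303 on the minus strand) encodes an ADP receptor and gave 62 to 168 counts per library. Its level was 7.02, 5.24 and 5.40 CPM in shCtrl-CTRL against 2.78, 3.97 and 3.18 CPM in shCtrl-OGDR. The shAnxa2 libraries held 4.30, 3.46 and 4.21 CPM untreated and 5.51, 3.02 and 4.95 CPM after OGD/R. As with P2ry6, untreated shCtrl cells had the highest mean, and the treated shAnxa2 libraries spanned those of shAnxa2-CTRL. P2ry13 fell in shCtrl cells after OGD/R (−0.82, SE 0.19, edgeR adjusted p = 0.000582), and the change in shAnxa2 cells was 0.15 (SE 0.198, adjusted p = 0.557). The untreated shAnxa2 line was lower than the untreated shCtrl line (−0.55, SE 0.186, adjusted p = 0.0136). That call was lost without replicate 1 of shCtrl-CTRL (−0.42, adjusted p = 0.0836) or replicate 2 of shAnxa2-CTRL (−0.46, adjusted p = 0.0643). After OGD/R the difference of 0.42 between the lines was not called (SE 0.202, adjusted p = 0.0716).

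Both P2ry13 and P2ry14 lie on the opposite strand within Med12l, a long gene encoding a Mediator subunit, and share no exon base with it in the GENCODE annotation of GRCm38. The library kit is not stated to keep the strand, so reads of unspliced Med12l RNA and of the 2 receptors cannot be told apart. Med12l was at 1.53 ± 0.459 CPM in shCtrl-CTRL, 2.49 ± 0.53 in shCtrl-OGDR, 2.21 ± 0.376 in shAnxa2-CTRL and 1.30 ± 0.0281 in shAnxa2-OGDR. It rose after OGD/R in shCtrl cells (0.69, SE 0.234, edgeR adjusted p = 0.0123), where P2ry13 fell, although leaving out replicate 1 of shCtrl-CTRL (0.48, adjusted p = 0.0853) or replicate 2 of shCtrl-OGDR (0.50, adjusted p = 0.103) removed that call. Per kilobase of exon, Med12l was at 0.102 to 0.195 CPM and P2ry13 at 1.31 to 2.33 CPM in the group means.

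P2ry14 (ENSMUSG00000036381, chromosome 3, 59021276 to 59061039 on the minus strand) was at the limit of detection. It had 3, 0 and 4 counts in shCtrl-CTRL, 3, 1 and 5 in shCtrl-OGDR, 5, 3 and 8 in shAnxa2-CTRL and 1, 1 and 4 in shAnxa2-OGDR. None of the 12 libraries reached 0.5 CPM, and no change was detectable at this depth. A count of 0 allows up to 3 counts, or 0.110 to 0.154 CPM over these libraries, by counting error only.

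P2ry2 (ENSMUSG00000032860, chromosome 7, 100645775 to 100662073 on the minus strand) encodes a receptor for ATP and UTP and was called in 1 of the 4 pairwise comparisons. Its range was 19.2 to 22.8 CPM in shCtrl-CTRL, 20.3 to 23.2 in shCtrl-OGDR, 23.3 to 23.9 in shAnxa2-CTRL and 23.1 to 26.8 in shAnxa2-OGDR. OGD/R changed it by 0.02 in shCtrl cells (SE 0.0826, edgeR adjusted p = 0.875) and by 0.09 in shAnxa2 cells (SE 0.0824, adjusted p = 0.373). The untreated lines differed by 0.17 (SE 0.0824, adjusted p = 0.087), or by 0.22 without replicate 1 of shCtrl-CTRL (adjusted p = 0.0404). Among treated cells, the shAnxa2 line had more P2ry2 than the shCtrl line (0.24, SE 0.0827, adjusted p = 0.0134), although the libraries overlapped by 1 value on each side. This call was lost without replicate 2 or replicate 3 of shCtrl-OGDR (0.20, adjusted p = 0.0625, and 0.21, adjusted p = 0.0522) and without replicate 1 of shAnxa2-OGDR (0.19, adjusted p = 0.0681). P2ry2 and P2ry6 are neighbors on the same strand, 21918 bases apart, and P2ry6 was called in 3 of the 4 pairwise comparisons.

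The adenosine receptors differed in their counts, with 91 to 224 per library for Adora2b and 4 to 21 for Adora2a. Adora2b (ENSMUSG00000018500, chromosome 11, 62139810 to 62157279 on the plus strand), which encodes the low-affinity receptor, was at 5.68, 6.52 and 5.55 CPM in shCtrl-CTRL and at 5.16, 5.57 and 4.66 CPM in shCtrl-OGDR. It was at 8.16, 9.05 and 8.90 CPM in shAnxa2-CTRL and at 9.74, 7.71 and 7.86 CPM in shAnxa2-OGDR. The 6 shAnxa2 libraries lay above the 6 shCtrl libraries, the reverse of P2rx7. The difference between the lines was 0.56 without OGD/R (SE 0.124, edgeR adjusted p = 0.000472) and 0.70 after it (SE 0.129, adjusted p = 3.72e-05). OGD/R itself changed Adora2b by −0.20 in shCtrl cells (adjusted p = 0.19) and by −0.05 in shAnxa2 cells (adjusted p = 0.744), neither of which was called.

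Adora2a (ENSMUSG00000020178, chromosome 10, 75152711 to 75170618 on the plus strand), which encodes the high-affinity receptor, had few counts. There were 5, 11 and 5 in shCtrl-CTRL, 21, 16 and 20 in shCtrl-OGDR, 15, 7 and 12 in shAnxa2-CTRL and 7, 7 and 4 in shAnxa2-OGDR. Only 4 libraries reached 0.5 CPM, the 3 of shCtrl-OGDR and 1 of shAnxa2-CTRL, so the gene entered the test mainly through the group in which it was highest. OGD/R gave a fitted change of 1.57 in shCtrl cells (SE 0.427, edgeR adjusted p = 0.00257) and −0.88 in shAnxa2 cells (SE 0.49, adjusted p = 0.131). Between the lines it was 0.93 without OGD/R (SE 0.472, adjusted p = 0.0952) and −1.53 after OGD/R (SE 0.444, adjusted p = 0.00398). Without replicate 2 of shCtrl-CTRL, which held 11 counts, the untreated difference was 1.37 with an adjusted p of 0.0423. With a minimum of 1 CPM the gene was not tested at all, and nothing is read from its calls.

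Counted over the set, 4 of the 8 genes tested were higher after OGD/R in shCtrl cells (Adora2a, Entpd1, P2rx4 and P2rx7), against 32.4% of all genes tested. Another 2 were lower (P2ry6 and P2ry13), against 31.0%. The 1 gene that also passed a log2 fold change of 1 was Adora2a, against 6.73% of all genes, and nothing is read from this, since Adora2a passed the filter on low counts mainly through shCtrl-OGDR. In shAnxa2 cells 1 was higher after OGD/R (P2ry6), against 28.2%, and 2 were lower (Entpd1 and P2rx4), against 26.8%. None passed the fold limit there, against 3.54%, also at an unadjusted p under 0.05 in edgeR and with DESeq2 or voom. All 3 of the genes called in both lines changed in opposite directions, as did 98.6% of such genes in the whole table, so the reversal was no particular trait of the set.

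**Figure D2:**
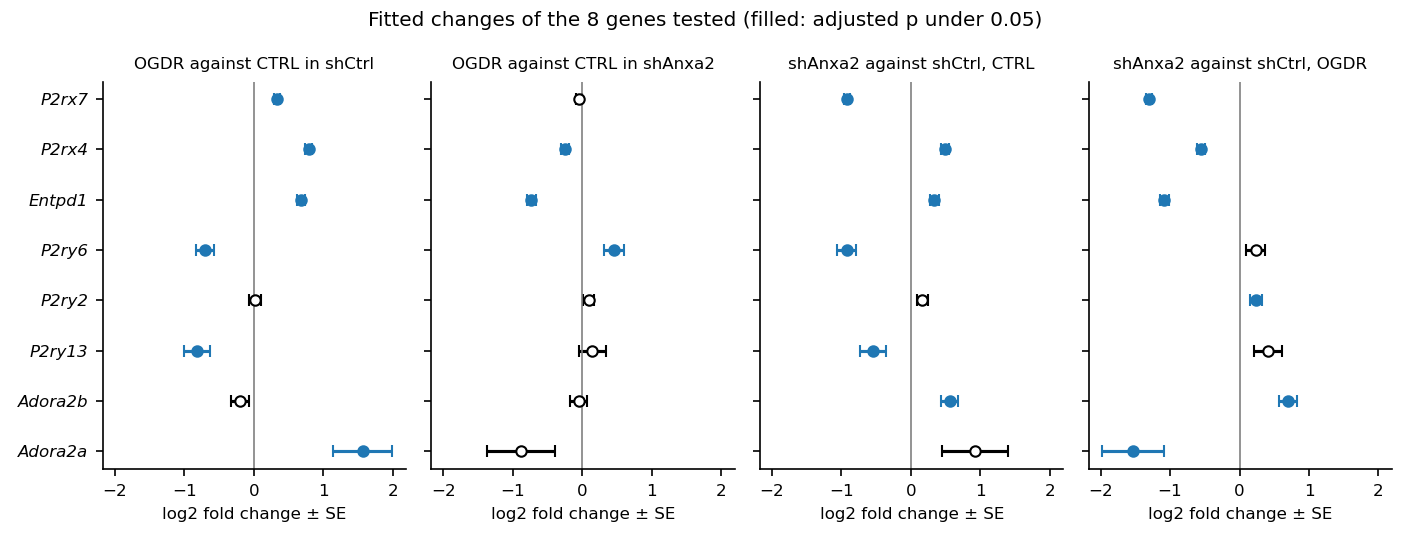
Log2 fold change ± SE of the 8 genes tested in the 4 pairwise comparisons, with filled blue points for an adjusted p under 0.05. P2rx7 was lower in shAnxa2 in both comparisons between lines (−0.92 and −1.31) and Adora2b higher (0.56 and 0.70), whereas P2rx4 and Entpd1 were higher without OGD/R and lower after it.

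Between the untreated lines, 3 of the 8 were higher in shAnxa2 (Adora2b, Entpd1 and P2rx4), against 29.5% of all genes, and 3 were lower (P2rx7, P2ry6 and P2ry13), against 29.7%. None reached the fold limit in edgeR, with adjusted or unadjusted p, or in DESeq2 or voom, and 5.68% of all genes did. After OGD/R, 2 were higher in shAnxa2 (Adora2b and P2ry2), against 33.8%, and 4 were lower (Adora2a, Entpd1, P2rx4 and P2rx7), against 34.2%. Adora2a, Entpd1 and P2rx7 passed the fold limit, 3 of 8 against 10.1%. These counts also include Adora2a, which entered the test as described above.

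Whether OGD/R acted differently in the 2 lines was tested as an interaction, the change in shAnxa2 minus that in shCtrl. It was negative for 4 genes against 35.1% of all genes. Entpd1 had an interaction of −1.42 (SE 0.092, edgeR adjusted p = 1.36e-12), P2rx4 of −1.04 (SE 0.0773, adjusted p = 1.52e-11), P2rx7 of −0.38 (SE 0.0583, adjusted p = 2.85e-06) and Adora2a of −2.45 (SE 0.651, adjusted p = 0.00179). It was positive for P2ry6 (1.16, SE 0.195, adjusted p = 1.14e-05) and P2ry13 (0.97, SE 0.275, adjusted p = 0.00318), 2 genes against 34.9%. Of these, Adora2a, Entpd1, P2rx4 and P2ry6 exceeded the fold limit, 4 of 8 against 21.5%, with the same limit for Adora2a. For P2ry2 and Adora2b the interaction was 0.07 (SE 0.117, adjusted p = 0.587) and 0.15 (SE 0.179, adjusted p = 0.473).

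**Figure D3:**
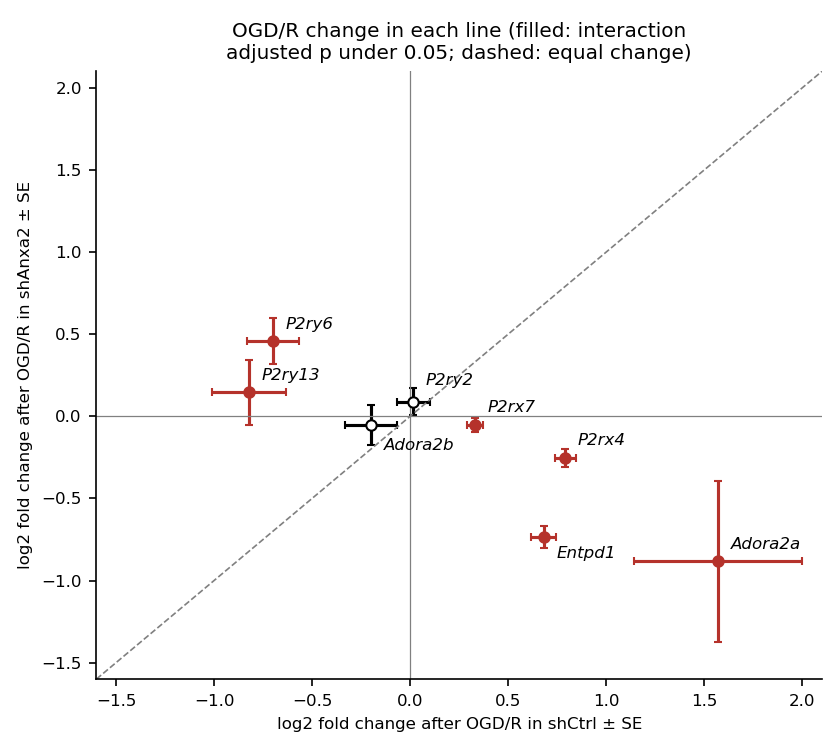
Log2 fold change after OGD/R in shCtrl cells (horizontal axis) against that in shAnxa2 cells (vertical axis), each ± SE, for the 8 genes tested, with filled red points where the interaction had an adjusted p under 0.05. Entpd1 (0.68 and −0.74) and P2rx4 (0.79 and −0.25) lay to the lower right, P2ry6 (−0.70 and 0.46) to the upper left, and P2ry2 and Adora2b near the dashed line of equal change.

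Levels of different genes were compared as CPM per kilobase of exon. P2rx7 ranked first in every group, at 227.9 ± 3.73, 286.7 ± 4.66, 120.2 ± 4.38 and 116.0 ± 2.45 CPM per kb in shCtrl-CTRL, shCtrl-OGDR, shAnxa2-CTRL and shAnxa2-OGDR. This was 86.6%, 86.9%, 75.2% and 76.6% of the sum over the 9 genes. Among 21780 genes with a length, P2rx7 stood at rank 175 in shCtrl-CTRL, 132 in shCtrl-OGDR, 349 in shAnxa2-CTRL and 392 in shAnxa2-OGDR. P2rx4 came second in every group, at 10.5 to 18.2 CPM per kb.

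Below the channels the order depended on the group. Entpd1 was the third in 3 groups and the fourth in shAnxa2-OGDR, where P2ry2 at 6.42 ± 0.49 CPM per kb exceeded it. The ranges of Entpd1 and P2ry6 overlapped in shCtrl-CTRL, at 6.70 to 7.27 and 6.51 to 7.12 CPM per kb. In shAnxa2-CTRL, Adora2b and P2ry6 overlapped at 4.72 ± 0.255 and 3.54 ± 1.11 CPM per kb. In shAnxa2-OGDR, Entpd1, P2ry6 and Adora2b did not differ beyond the spread of their libraries, at 5.31 ± 0.473, 4.93 ± 0.265 and 4.57 ± 0.615 CPM per kb. P2ry13, Adora2a and P2ry14 held the last places in each group, in that order.

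**Figure D4:**
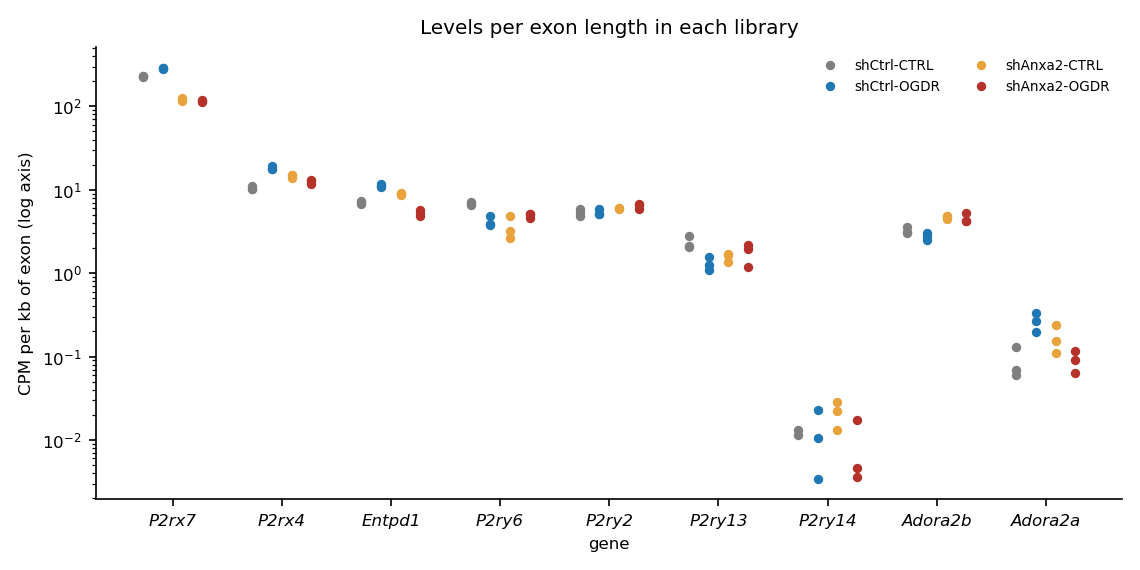
Level per exon length (CPM per kb, log axis) of the 9 genes in the 12 libraries, colored by group, with the 1 library without a P2ry14 count not drawn. P2rx7 lay above 100 CPM per kb in all libraries, P2rx4 came next at 10.1 to 19.1, and Adora2a and P2ry14 were below 1.

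Promoter sequence was examined for the genes that moved together after OGD/R. RefSeq windows of the 250 bases before a transcription start (GRCm38.p6) were found for 7 of the 9 genes, and those of P2ry6 and Adora2a were not used here. Both strands were searched for the hypoxia response core (ACGTG or GCGTG), the AP-1 site (TGANTCA, a pattern equal to its own reverse complement) and the NF-kB site. The windows of P2rx7, P2rx4 and Entpd1, higher in shCtrl-OGDR than in shCtrl-CTRL and shAnxa2-OGDR, are shown with that of P2ry13, which fell in shCtrl cells. Matches are in capitals, 5′ to 3′ along the gene. P2rx7 and Entpd1 each have 2 listed starts, and the first is printed.
P2rx7, chr5:122643677-122643926, plus strand: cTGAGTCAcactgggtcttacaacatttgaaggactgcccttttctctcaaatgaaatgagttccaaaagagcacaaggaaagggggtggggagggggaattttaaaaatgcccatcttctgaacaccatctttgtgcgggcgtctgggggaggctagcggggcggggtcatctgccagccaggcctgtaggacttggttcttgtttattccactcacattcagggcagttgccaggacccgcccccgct
P2rx4, chr5:122707294-122707543, plus strand: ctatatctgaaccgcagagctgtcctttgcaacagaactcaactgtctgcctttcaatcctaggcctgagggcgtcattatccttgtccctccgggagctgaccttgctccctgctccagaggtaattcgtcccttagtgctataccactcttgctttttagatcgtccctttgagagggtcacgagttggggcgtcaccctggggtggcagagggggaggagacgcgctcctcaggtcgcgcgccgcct
Entpd1, chr19:40612116-40612365, plus strand: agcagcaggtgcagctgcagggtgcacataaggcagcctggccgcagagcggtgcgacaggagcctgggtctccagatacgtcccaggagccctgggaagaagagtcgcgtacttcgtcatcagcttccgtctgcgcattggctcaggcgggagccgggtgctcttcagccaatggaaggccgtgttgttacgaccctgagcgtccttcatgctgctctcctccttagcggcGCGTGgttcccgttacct
P2ry13, chr3:59210883-59211132, minus strand: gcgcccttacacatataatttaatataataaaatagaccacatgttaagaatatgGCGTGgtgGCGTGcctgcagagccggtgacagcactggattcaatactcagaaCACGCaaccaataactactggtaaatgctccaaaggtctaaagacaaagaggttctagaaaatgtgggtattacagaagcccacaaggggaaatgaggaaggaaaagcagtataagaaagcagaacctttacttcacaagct
The P2rx7 window held 1 AP-1 match, beginning 249 bases before the start, and 6.75% of 32851 promoter windows held such a match. Entpd1 had GCGTG 18 bases before the start, and P2ry13 had it at 195 and 187 bases and, on the reverse strand, at 142 bases before the start, where 28.2% of windows held this form and 38.6% either form of the hypoxia core. The P2rx4 window had no match to any of the motifs. Hypoxia cores were also found before P2ry2 and Adora2b, which were not called after OGD/R in either line. Windows of P2ry14 held GCGTG and AP-1 matches. No window of the 7 genes matched the NF-kB site, found in 7.25% of all windows. The G and C content was 53.6% for P2rx7, 57.2% for P2rx4, 62.4% for Entpd1 and 41.6% for P2ry13, with a median of 52.4% over all windows. The 3 genes that rose together thus had no searched motif in common, and a match or its absence in these windows describes letters only.

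Profiles were compared by Pearson's r of log2(CPM + 0.5) over the 12 libraries, which fall into 4 groups, so that group differences carry most of each value. P2rx4 and Entpd1 had r = 0.77, and Adora2a had r = 0.82 with P2rx4 and 0.83 with Entpd1. Adora2a had 4 to 21 counts per library and entered the test mainly through shCtrl-OGDR, so nothing is read from its values of r in this paragraph. P2rx7 and Adora2b ran opposite to each other, with r = −0.95. P2rx7 and P2rx4, neighbors in the genome, had r = 0.25. For P2ry6 and P2ry13, r was 0.71. The genes with the most similar profiles were Maf (0.99) and Myo5a (0.99) for P2rx7, Aldh2 (0.99) and Cyb561a3 (0.99) for P2rx4, and Golph3l (0.99) and Sla (0.99) for Entpd1. They were Clptm1 (0.95) and Chsy1 (0.94) for P2ry6, Rnasek (0.90) and Med29 (0.87) for P2ry13, and Ndufaf6 (0.94) and Fbxl15 (0.89) for P2ry2. For the adenosine receptors they were Pilrb2 (0.97) and Mdm2 (0.96) for Adora2b and Rplp2 (0.95) and Rbm33 (0.94) for Adora2a.

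The other genes of the pathway comprised 69 receptors, nucleotide-degrading enzymes, nucleoside transporters, release channels and coupling proteins, of which 42 were tested. After OGD/R, 16 were higher and 12 lower in shCtrl cells, with a median log2 fold change of −0.04 against 0.00 over all genes, while 32.4% and 31.0% of all genes were called in these directions, and in shAnxa2 cells the numbers were 12 and 15 (median 0.05 against 0.00), beside 28.2% and 26.8% of all genes. Between the lines, 16 were higher and 14 lower in shAnxa2 without OGD/R (median 0.02), beside 29.5% and 29.7% of all genes. After OGD/R, 14 were higher and 14 lower (median 0.08), beside 33.8% and 34.2%. The interaction was positive in 18 and negative in 15 of the 42, beside 34.9% and 35.1% of all genes.

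Among the remaining P2X channels, P2rx1 was called in the same direction as P2rx4 in each of the 4 pairwise comparisons. It had 84, 101 and 107 counts in shCtrl-CTRL, 218, 201 and 132 in shCtrl-OGDR, 168, 236 and 261 in shAnxa2-CTRL and 93, 82 and 93 in shAnxa2-OGDR. P2rx1 rose after OGD/R in shCtrl cells (1.05, SE 0.152, edgeR adjusted p = 1.98e-06) and fell in shAnxa2 cells (−1.27, SE 0.151, adjusted p = 1.77e-07). P2rx3, a channel of sensory neurons, had 7, 11 and 20 counts in shCtrl-CTRL and 91, 43 and 42 in shCtrl-OGDR, a rise of 2.34 (SE 0.355, adjusted p = 3.65e-06). In shAnxa2 it had 22, 10 and 20 counts untreated and 8, 10 and 5 after OGD/R. P2rx2 went the other way at very low counts, with 10, 9 and 11 in shCtrl-CTRL and 1 in each shCtrl-OGDR library. It had 3, 5 and 7 in shAnxa2-CTRL and 13 to 14 in shAnxa2-OGDR. Only the shAnxa2-OGDR libraries reached 0.5 CPM, so P2rx2 entered the test through the group in which it was highest. The counts of pathway genes called include it, and nothing is read from its calls. P2rx5 had 3 to 23 counts per library, with 11, 23 and 9 in shCtrl-CTRL and 3, 3 and 9 in shAnxa2-CTRL. It reached 0.5 CPM only in replicate 2 of shCtrl-CTRL and replicates 1 and 3 of shAnxa2-OGDR, the groups with its highest means. The untreated lines had a fitted difference of −1.26 (SE 0.524, adjusted p = 0.0414), and nothing is read from the calls of P2rx5, which the counts of pathway genes also include.

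P2ry1, the ADP receptor coupled to calcium release, was lower in the knockdown line under both treatments. It was at 13.1 ± 0.495 CPM in shCtrl-CTRL and 5.54 ± 0.909 in shAnxa2-CTRL (−1.25, SE 0.126, edgeR adjusted p = 8.07e-09), and at 15.8 ± 1.05 and 4.88 ± 0.85 CPM after OGD/R (−1.68, SE 0.127, adjusted p = 2.61e-11). P2ry12, the ADP receptor by which brain microglia are recognized, reached only 1.73 to 2.53 CPM in the group means and was not called in shCtrl cells after OGD/R (−0.38, SE 0.224, adjusted p = 0.14). Treated shAnxa2 cells had more P2ry12 than treated shCtrl cells (0.57, SE 0.225, adjusted p = 0.0291), and its interaction was 0.80 (SE 0.316, adjusted p = 0.0276). P2ry4 and Adora1 had 0 counts in all 12 libraries, and Adora3 had 0 to 6.

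Nt5e, which encodes CD73, was barely detected, with 1 to 10 counts per library. Of the other nucleotide-degrading enzymes, Alpl, Entpd5, Entpd6 and Entpd7 were tested. After OGD/R all 4 were called higher in the shAnxa2 line than in the shCtrl line, where Entpd1 was lower, beside 33.8% of all genes tested. Entpd5 differed by only 0.15 there (SE 0.0597, edgeR adjusted p = 0.0322). Its interaction was −0.30 (SE 0.084, adjusted p = 0.00272), of the same sign as that of Entpd1. Alpl, the tissue-nonspecific alkaline phosphatase, which also hydrolyzes AMP to adenosine, went from 153.7 ± 4.85 to 108.8 ± 1.08 CPM after OGD/R in shCtrl cells and from 113.9 ± 7.56 to 164.6 ± 4.18 CPM in shAnxa2 cells. Its interaction was 1.03 (SE 0.0695, edgeR adjusted p = 2.82e-12), opposite in sign to that of Entpd1.

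Among nucleoside transporters, Slc29a2, an equilibrative transporter that carries adenosine across the membrane, fell in shCtrl cells after OGD/R from 25.6 ± 1.89 to 12.4 ± 0.828 CPM (−1.04, SE 0.0812, edgeR adjusted p = 6.54e-11). Treated shAnxa2 cells had more of it than treated shCtrl cells (1.37, SE 0.081, adjusted p = 2.88e-13). Slc28a2, a concentrative transporter, was lower there (−1.01, SE 0.109, adjusted p = 1.38e-08). Of the genes for nucleotide release and sugar supply, Slc35d2 had an interaction of −1.48 (SE 0.185, adjusted p = 1.47e-07). Among the coupling proteins, after OGD/R the β-arrestin gene Arrb1 was lower in shAnxa2 (−1.10, SE 0.0492, adjusted p = 2.07e-15) and the phospholipase C gene Plcb4 higher (1.12, SE 0.325, adjusted p = 0.00404). Plcb4 had few counts, with 17, 16 and 8 in shCtrl-OGDR and 31, 23 and 27 in shAnxa2-OGDR. Its OGD/R change was −0.98 in shCtrl cells (SE 0.321, edgeR adjusted p = 0.0101) and 0.02 in shAnxa2 cells (SE 0.287, adjusted p = 0.969).

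**Figure D5:**
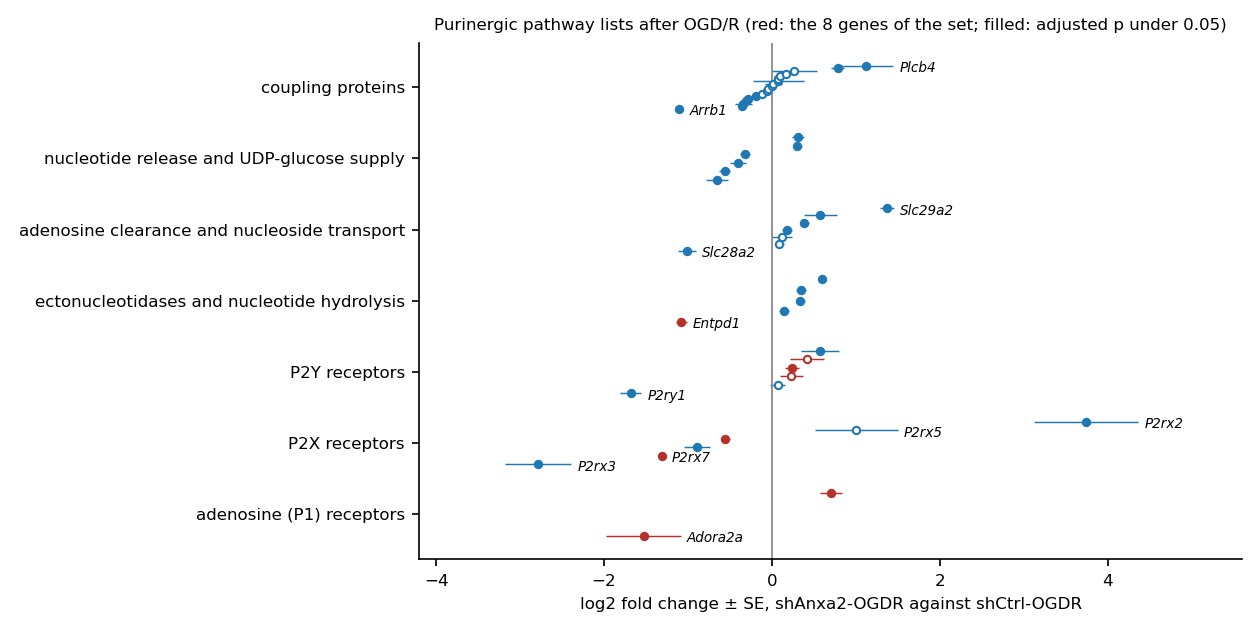
Log2 fold change ± SE of shAnxa2-OGDR against shCtrl-OGDR for the tested genes of 7 lists of the purinergic pathway, with the 8 genes of the set in red and filled points for an adjusted p under 0.05. The outermost points were P2rx2 (3.74) and P2rx3 (−2.79). P2rx7 (−1.31), Entpd1 (−1.08), P2ry1 (−1.68), Arrb1 (−1.10) and Slc28a2 (−1.01) lay on the lower side, and Slc29a2 (1.37) and Plcb4 (1.12) on the upper side. Adora2a (−1.53) and P2rx2 had few counts and passed the filter mainly or only through 1 of the groups compared, so nothing is read from them.

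In bulk RNA, fewer cells expressing a receptor and less RNA per cell cannot be told apart. The levels are those of transcripts, and receptor protein or ligand was not measured in these libraries.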

How the data were processed

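BV2 libraries were prepared from total RNA with a NEBNext Ultra RNA kit, and 12 libraries in 4 groups of 3 were analysed. The authors deposited raw counts of reads per protein-coding gene. The submitters' processing notes name HISAT2 2.0.4 and the build mm39, and the counting tool for these cells is not given in the sources used here. A further 12 per-sample columns of normalized counts in the deposited table were not used. The median library total was 24531756 counts, and counts of replicate libraries differed by more than counting error. Normalization and tests used edgeR 4.0.16 (TMM, glmQLFit, glmQLFTest) in R 4.3.3 over the 11626 genes that reached 0.5 CPM in 3 or more libraries, in 1 model of the 4 groups, with Benjamini-Hochberg adjustment. The SE of a log2 fold change was computed as the absolute value over the root of F. The common biological coefficient of variation was 5.36%. Exon lengths came from GENCODE vM21 (GRCm38). Alternatives were the size factors of DESeq2, all genes with any count, a minimum of 1 CPM, DESeq2 1.42.0, voom of limma 3.58.1, the replicate number as a block, only the groups compared, and leaving out each library. On simulated counts for OGD/R in shCtrl cells with 11501 genes tested, 94% of 100 genes with a log2 change of 1 were called, and 0.0973% of 11301 unchanged genes. Only 200 genes were changed there, with the spread taken from the fit itself. In the data 32.4% of genes were called higher and 31.0% lower in this comparison, so the simulated rates are not those of the calls reported here. Python 3.11.15 with pandas 2.3.3 and matplotlib 3.10.9 made tables and plots.

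The 9 genes, pathway lists and markers were chosen with earlier results of these data known, and no set test was made. Besides the 9 genes, the genes named were Anxa2, genes overlapping a member, for each pathway list up to 3 genes a comparison with the largest change among those called at a log2 fold change of at least 1, and for each gene tested the 2 with the highest correlation, passing over predicted names. P2ry12, P2ry4, Adora1, Adora3, Nt5e and Entpd5 to Entpd7 were named after their values were seen. Protein sequences were not used here.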

Additional observations from a re-analysis of the deposited data

Results flagged for a closer look

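The OGD/R change differed between the shAnxa2 and shCtrl lines, by the interaction term of the edgeR fit (quasi-likelihood test, Benjamini-Hochberg adjustment) over 11626 genes, for 6 of the 8 purinergic genes tested. As the change in shAnxa2 minus the change in shCtrl on the log2 scale, the difference was −1.04 for P2rx4 (adjusted p = 1.52e-11), −0.38 for P2rx7 (adjusted p = 2.85e-06), −1.42 for Entpd1 (adjusted p = 1.36e-12) and −2.45 for Adora2a (adjusted p = 0.00179). Adora2a had passed the filter on low counts mainly through shCtrl-OGDR, and with a minimum of 1 CPM it was not tested and 5 genes were called. The difference was 1.16 for P2ry6 (adjusted p = 1.14e-05) and 0.97 for P2ry13 (adjusted p = 0.00318). Such a difference was also called for 34.9% of all genes tested in the positive and 35.1% in the negative direction, and its cause was not tested.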

How the results depend on the processing

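The counts of genes called in each comparison stayed within 1.5 times of the values given under all alternatives, except as follows. With a minimum of 1 CPM, 0 of the set passed the fold limit after OGD/R in shCtrl cells, because Adora2a was then not tested. Leaving out 1 library at a time, the genes called higher after OGD/R in shAnxa2 cells numbered 0 to 1 (0 without shAnxa2-CTRL replicate 2). Those higher in shAnxa2 than in shCtrl after OGD/R numbered 1 to 3 (1 without shCtrl-OGDR replicate 3 or shAnxa2-OGDR replicate 1). Those past the fold limit between the untreated lines numbered 0 to 1 (1 without shCtrl-CTRL replicate 2 or shAnxa2-CTRL replicate 3). Directions reversed only in changes that were not called and only when 1 library was left out, for P2ry2 in shCtrl cells after OGD/R (from −0.0436 to 0.0718, and −0.0405 without shCtrl-CTRL replicate 3), P2ry13 after OGD/R in shAnxa2 cells (−0.026 without shAnxa2-OGDR replicate 1, to 0.379) and Adora2b there (−0.162 to 0.0069, the latter without shAnxa2-OGDR replicate 2). P2ry13 between the lines after OGD/R was called without a filter (0.40, edgeR adjusted p = 0.0356) and without shCtrl-OGDR replicate 2 (0.58) or shAnxa2-OGDR replicate 2 (0.65). P2ry14, fitted only without a filter, had an adjusted p of 0.226 to 0.756 over the 5 comparisons. The replicate numbers did not pair the libraries, with same-number correlations of deviations of −0.045 to 0.116 and 1 of 18 over 0.1, and with the replicate number as a block 6 of the 8 genes were called after OGD/R in shCtrl cells, 3 in shAnxa2 cells, and 6 between the lines both without and after OGD/R, with no call of these genes changed.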
